A study of Homo sapiens with 15 samples.

Results

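The replication-dependent histone genes were followed across the H1975 and H1975–OR libraries. They were taken as every row whose symbol starts with HIST1H, HIST2H, HIST3H or HIST4H and whose summed count over the 15 libraries was at least 15. Of the 19612 rows, 71 carried such a symbol and 65 passed the minimum, namely 5 genes for H1, 16 for H2A, 17 for H2B, 14 for H3 and 13 for H4. The rows left out were HIST1H1T, HIST1H2AA, HIST1H2BA, HIST1H4G, HIST1H4K and HIST3H3. The highest of these was HIST1H2BA with a summed count of 12, and the lowest members kept were HIST2H3PS2 with 384 and HIST2H4B with 620.04.

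The study asked how 1,25(OH)2D3, the hormonal form of vitamin D, acts on lung adenocarcinoma cells that have become resistant to the EGFR inhibitor osimertinib. H1975 is a human lung adenocarcinoma line, and every library carries its EGFR substitutions T790M and L858R. H1975–OR is a single resistant sub-line, made by long culture of H1975 in osimertinib, so differences between the lines compare 2 cultures rather than many independent resistant lines. RNA came from 3 separate passages per group, and the libraries of each group are lettered a, b and c. The labels do not say that a letter marks a passage shared between groups. Samples 1a, 1b and 1c are H1975 given vehicle. Samples 2a to 2c are H1975–OR given vehicle, 3a to 3c H1975–OR given 100 nM 1,25(OH)2D3, 4a to 4c H1975–OR given 500 nM osimertinib, and 5a to 5c H1975–OR given both agents at those doses. All groups were treated for 96 h in medium with charcoal-stripped serum, with doses at 0, 48 and 92 h. According to the paper, H1975–OR was otherwise kept in osimertinib continuously. The H1975–OR cells given vehicle or 1,25(OH)2D3 alone were thus taken off the drug for the treatment. The study left out Sample 3a; its values are shown here but enter no mean, fold change or test unless stated.

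Histones package DNA into nucleosomes. H2A and H2B form dimers, H3 and H4 form a tetramer, and the linker histone H1 binds the DNA where it enters and leaves. The genes studied here are clustered, have no introns, and are switched on together when DNA is copied in S phase. Their mRNAs end in a conserved stem-loop instead of a poly(A) tail. The stem-loop is bound by SLBP, and the mRNAs are lost quickly when DNA synthesis stops. Some of these genes can also make polyadenylated mRNA in cells that are not dividing. The libraries were made from ribosome-depleted total RNA without poly(A) selection, so mRNA with either kind of end could be sequenced.

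All 65 members matched a gene in RefSeq and in GENCODE v44 (GRCh38), and the canonical transcript of each had a single exon. In every member the 16 bases of the stem-loop lay 22 to 67 bases after the stop codon (median 35). The same search found a stem-loop in 0.422% of all GENCODE coding gene names. The forms below are shown because they are the shared mark of the group and because 1 base pair of the stem separates H4 from the rest. The stem is in capitals and the loop in lower case, as DNA letters.
HIST1H1B, HIST1H3B and 37 others: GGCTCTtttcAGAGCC
HIST1H2BK, HIST1H2BJ and 6 others: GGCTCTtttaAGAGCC
HIST1H4E, HIST1H4J and 7 other H4 genes: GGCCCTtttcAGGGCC
HIST2H4A, HIST2H4B and HIST1H4I: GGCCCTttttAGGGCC
The third and the fourth form share a stem that all 13 H4 genes carried and none of the other 52 members did. HIST2H2BE, an H2B gene, was the only member whose canonical transcript ran far past the stem-loop, by 1729 bases.

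Promoters were available from RefSeq (GRCh38.p14) for 60 of the 65 members, each from 250 bases before to 50 bases after the start. Every motif was searched on both strands: CCAAT for the CCAAT box, which is named for its own letters, TATAAA for the box that positions the start of transcription, ATTTGCAT for the octamer bound by OCT1 (encoded by POU2F1), and AAACACA for the element known from H1 promoters. CCAAT was found in 86.7% of the members against 34.61% of all 35116 promoters, and TATAAA in 65.0% against 11.53%. The octamer was found in 76.5% of H2B and 66.7% of H2A promoters, in no H1, H3 or H4 promoter, and in 1.77% of all promoters. Some H2A and H2B genes lie head to head with overlapping windows, such as HIST1H2AG and HIST1H2BJ or HIST1H2AC and HIST1H2BC. A motif there counts for both genes. All 5 H1 promoters held AAACACA, against 5.64% of all promoters. CCAAT was in every H1, H2A, H2B and H3 promoter examined but in 27.3% of those of H4. One promoter of each pattern is printed to show how the types differ before the start, with the motifs in capitals on the strand of the gene (a motif on the other strand appears as its reverse complement). HIST1H1B shows the H1 pattern, HIST1H2BJ the H2B pattern with the octamer, and HIST1H4E an H4 pattern with none of the motifs. Only the 250 bases before the start are shown. Those of HIST1H2BJ also lie in the window of HIST1H2AG, which starts at their far end on the plus strand.
HIST1H1B, chr6:27867589-27867838, minus strand, GRCh38: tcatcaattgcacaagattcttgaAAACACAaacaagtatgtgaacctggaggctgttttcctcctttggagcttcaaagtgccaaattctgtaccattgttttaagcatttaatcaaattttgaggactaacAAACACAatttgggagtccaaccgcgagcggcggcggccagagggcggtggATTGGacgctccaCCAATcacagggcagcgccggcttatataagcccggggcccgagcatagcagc
HIST1H2BJ, chr6:27132796-27133045, minus strand, GRCh38: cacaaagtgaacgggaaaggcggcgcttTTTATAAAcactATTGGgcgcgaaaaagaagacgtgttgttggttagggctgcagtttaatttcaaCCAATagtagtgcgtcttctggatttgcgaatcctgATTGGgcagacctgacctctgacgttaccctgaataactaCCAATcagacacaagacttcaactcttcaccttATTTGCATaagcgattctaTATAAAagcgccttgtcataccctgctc
HIST1H4E, chr6:26204360-26204609, plus strand, GRCh38: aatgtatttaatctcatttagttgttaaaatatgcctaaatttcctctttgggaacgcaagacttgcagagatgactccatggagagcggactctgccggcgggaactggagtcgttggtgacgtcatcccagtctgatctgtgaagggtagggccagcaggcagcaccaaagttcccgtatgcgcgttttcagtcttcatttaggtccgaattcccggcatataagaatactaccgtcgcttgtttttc
The letters describe these windows only, and no binding was measured.

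Total estimated counts per library ran from 4378030 to 6140120 (median 4974785). Levels are given as CPM (read counts scaled to a common library total) after TMM scaling, which lines up the bulk of the genes between libraries. Of 10 epithelial and lung adenocarcinoma markers, 8 passed the filter on low counts, and in H1975–OR against H1975, both given vehicle, 4 of them fell and 1 rose. The 4 were the adhesion gene CDH1 (log2 fold change -5.11), EPCAM (-3.69), KRT19 (-1.74) and KRT7 (-1.46). KRT18 rose by 0.38 and lay between 1776 and 2917 CPM over all libraries, and NKX2-1, a lung lineage factor, was not called (0.35) and lay between 31.9 and 98.8 CPM. CDH1 was called higher with 1,25(OH)2D3 against vehicle (4.23) and with both agents against osimertinib alone (3.42). SFTPB and NAPSA, which mark differentiated alveolar cells, did not exceed 2.25 CPM in any library. The part of these marker differences in the histone results was not tested. The summed level of 8 markers of blood, endothelial and fibroblast cells lay between 31.1 and 70.8 CPM. Of the 4 tested in H1975–OR against H1975, 2 were called lower and 1 higher. Members were counted as changed when edgeR's quasi-likelihood test gave a Benjamini-Hochberg adjusted p under 0.05 over all genes tested. All 65 passed the filter on low counts. The p-values measure the spread between libraries of the same group, from 1 line each.

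The first comparison asked how the resistant line differs from its parent when both receive vehicle. Histone mRNA was far lower in H1975–OR. The 65 members summed to 12369, 12543 and 11181 CPM in Samples 1a, 1b and 1c and to 3729.9, 3267.4 and 3159.1 CPM in Samples 2a, 2b and 2c. The ratio of the means was 3.55-fold, and the members' share of all counts was 1.16 to 1.31% in H1975 and 0.313 to 0.386% in H1975–OR given vehicle. Of the 65 members, 59 were called lower and 0 higher (1 higher at an unadjusted p under 0.05 and 1 by DESeq2, HIST2H4B), against 10.3% called lower and 9.89% called higher among all 12513 genes tested. The median log2 fold change was -1.93 over the members and 0.01 over all genes tested. In 62 members every H1975–OR vehicle library lay below every H1975 library, which held for 20.3% of all genes tested. In bulk RNA, fewer cells in S phase and less histone mRNA per cell cannot be told apart.

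Each histone type was lower. The H1 genes summed to 1889.9, 1958 and 1790.5 CPM in H1975 and to 692, 490.1 and 439 CPM in H1975–OR given vehicle, a 3.48-fold lower mean. The H2A genes summed to 2820.4, 2861 and 2670.3 CPM against 770.1, 789 and 761 CPM, 3.60-fold lower. The H2B genes summed to 2856, 2783 and 2427 CPM against 877, 772 and 721 CPM, 3.40-fold lower. For none of these types did the 2 lines overlap. The H3 genes summed to 2391, 2428 and 2119 CPM against 589, 413 and 461 CPM, which at 4.74-fold lower was the widest gap of the 5 types. The H4 genes summed to 2412, 2512 and 2174 CPM against 801, 803 and 777 CPM, 2.98-fold lower and the narrowest gap. The sums carry no test, and the SD of their log2 values within a group was at most 0.34.

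**Figure D1:**
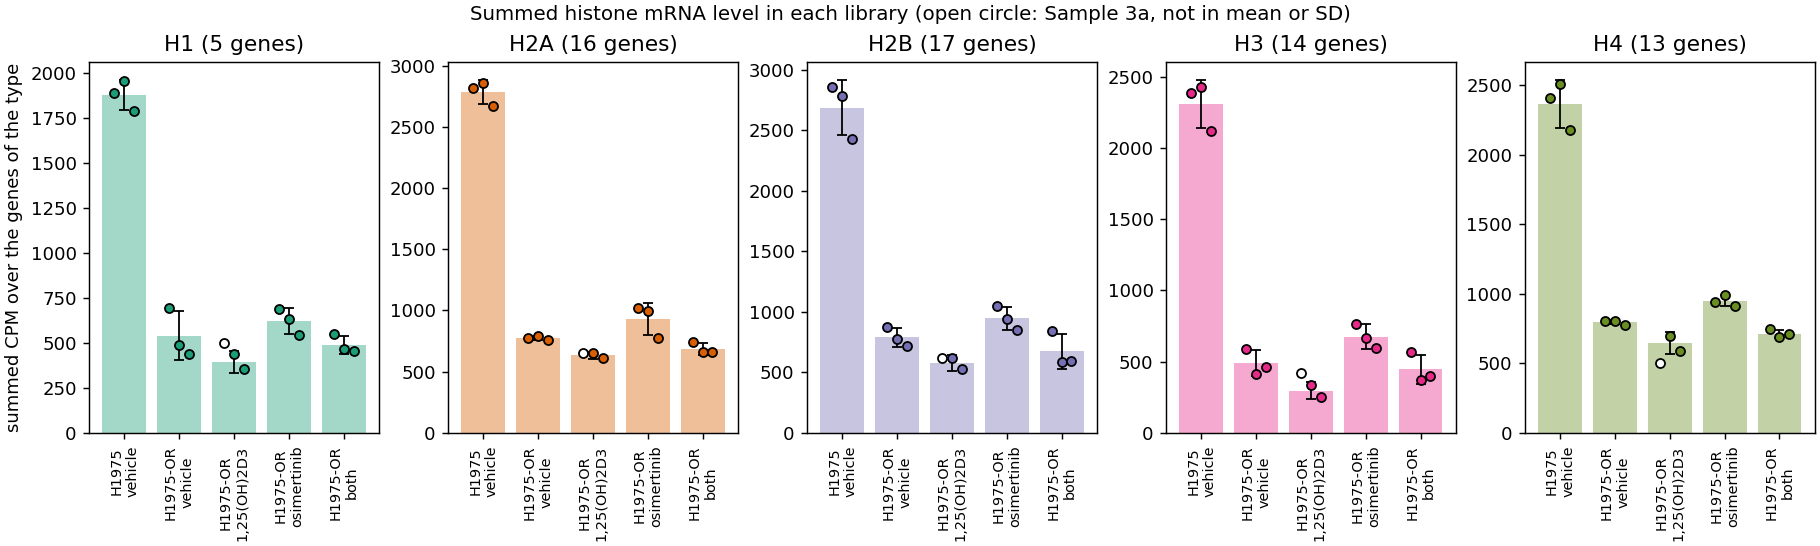
Summed CPM of the genes of each histone type (vertical axes, each from 0) in every library of the 5 groups (horizontal axis). Points are libraries, bars are means and error bars SD, and the open circle is Sample 3a, which is in neither; the H1975 points sit above all H1975–OR points in each panel, at 12369, 12543 and 11181 CPM over all types together.

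Among the H1 genes, all 5 fell. HIST1H1C, the linker histone gene with the highest level and one of those known to be expressed outside S phase, was at 597, 619.5 and 574 CPM in H1975 and 346, 202 and 190.4 CPM in H1975–OR given vehicle. Its log2 fold change was -1.26 ± 0.22 (SE; adjusted p = 0.00565), the smallest of the type. HIST1H1E went from 427, 505 and 447 to 157, 157 and 142 CPM (-1.58 ± 0.12, adjusted p = 0.000177). HIST1H1B went from 422, 428 and 400.0 to 96.4, 54.5 and 57.2 CPM (-2.57 ± 0.22, adjusted p = 0.000364) and HIST1H1D from 346, 329.7 and 303 to 73.1, 53.3 and 38.3 CPM (-2.56 ± 0.26, adjusted p = 0.000603). The make-up of H1 mRNA therefore differed between the lines. HIST1H1C held 31.8% ± 0.238 of the H1 CPM in H1975 and 44.9% ± 4.54 in H1975–OR given vehicle, whereas HIST1H1B held 22.2% ± 0.258 and 12.7% ± 1.43 (SD, n = 3).

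Among the H2A genes, 14 of 16 fell. The highest, HIST2H2AA3, was at 624, 735 and 724 CPM in H1975 and 177, 166 and 151 CPM in H1975–OR given vehicle (-2.06 ± 0.12, adjusted p = 7.03e-05). HIST1H2AG (-1.38 ± 0.14, adjusted p = 0.000596) and HIST2H2AC (-1.35 ± 0.14, adjusted p = 0.000649) fell less. HIST1H2AC stood apart because of 1 library. It was at 286, 226 and 239 CPM in H1975 but at 19.4, 151 and 138 CPM in Samples 2a, 2b and 2c, where 2a held 95.3 counts beside 731 and 717. Its log2 fold change was -1.27 ± 0.56 with adjusted p = 0.147; without Sample 2a it was -0.80 with adjusted p = 0.00507. HIST3H2A, the other uncalled H2A gene, was at 10.0, 8.19 and 12.2 CPM against 4.09, 8.67 and 4.04 CPM, groups that overlap. HIST1H2AK was called (-1.24 ± 0.34, adjusted p = 0.0352) but lost its call, at -1.25 with adjusted p = 0.0629, when Sample 3a was kept, and also in 5 of the 6 fits that left out 1 library of the compared groups.

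Among the H2B genes, 15 of 17 fell. The steepest was HIST1H2BM, at 87.5, 85.0 and 70.5 CPM in H1975 and 14.7, 10.7 and 8.28 CPM in H1975–OR given vehicle (-2.83 ± 0.23, adjusted p = 0.000284). HIST1H2BF followed at -2.43 ± 0.34 (adjusted p = 0.00229). The 4 H2B genes with the highest CPM changed by less. HIST1H2BH went from 306, 284 and 239 to 79.9, 77.0 and 68.0 CPM (-1.87 ± 0.15), and HIST2H2BE from 271, 325 and 282 to 66.0, 94.8 and 83.4 CPM (-1.83 ± 0.16). HIST1H2BD changed by -1.32 ± 0.16 on the log2 scale (adjusted p = 0.00139). HIST1H2BK had the smallest fall of all members called, from 199, 182 and 157 to 106, 105 and 103 CPM (-0.76 ± 0.12, adjusted p = 0.00348). Its share of the H2B CPM was 6.66% ± 0.262 in H1975 and 13.3% ± 1.13 in H1975–OR given vehicle (SD, n = 3). Of the uncalled genes, HIST1H2BN was at 83.0, 68.1 and 40.0 CPM against 35.8, 48.5 and 44.9 CPM, and without Sample 1c it was called at -0.82 (adjusted p = 0.0252). HIST3H2BB was at 17.0, 15.3 and 11.4 CPM against 10.0, 4.34 and 7.32 CPM, and without Sample 2a it was called at -1.32 (adjusted p = 0.0441).

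Among the H3 genes, 13 of 14 fell. HIST2H3A and HIST2H3C had identical values in every library, at 233, 286 and 249 CPM in H1975 and 37.2, 26.0 and 39.3 CPM in H1975–OR given vehicle. Each changed by -2.89 ± 0.18 (adjusted p = 0.000132), the largest fall of any member, and the pair is in effect 1 measurement listed under both symbols. HIST1H3J went from 78.4, 74.8 and 60.6 to 13.1, 6.82 and 11.2 CPM (-2.77 ± 0.26, adjusted p = 0.00048). HIST2H3D changed by -2.72 ± 0.19 and HIST1H3G by -2.45 ± 0.19, with adjusted p = 0.000151 and 0.000211. The H3 genes of highest level in the larger cluster also fell, HIST1H3B from 269, 246 and 207 to 76.8, 41.1 and 44.3 CPM (-2.14 ± 0.25) and HIST1H3F from 235, 223 and 209 to 55.6, 39.2 and 35.0 CPM (-2.34 ± 0.20). HIST2H3PS2, an H3 copy of low level, was not called, at 12.1, 11.7 and 7.52 CPM against 4.09, 6.82 and 5.97 CPM (adjusted p = 0.13).

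Among the H4 genes, 12 of 13 fell, and their median log2 fold change of -1.48 was the smallest in size of the 5 types. HIST1H4J was at 493, 517 and 444 CPM in H1975 and 171, 220.4 and 203 CPM in H1975–OR given vehicle (-1.28 ± 0.13, adjusted p = 0.000596). HIST1H4E went from 269.5, 294 and 246 to 158, 156 and 133 CPM (-0.84 ± 0.14, adjusted p = 0.00449), and its share of the H4 CPM was 11.4% ± 0.269 in H1975 and 18.8% ± 1.46 in H1975–OR given vehicle. HIST1H4C changed by -1.48 ± 0.20 (adjusted p = 0.00217). HIST2H4A and HIST2H4B are copies whose canonical transcripts shared 100% of their 31-base words, so the split of reads between them is uncertain. HIST2H4A was at 587, 639 and 587 CPM against 103, 96.0 and 116 CPM (-2.51 ± 0.11, adjusted p = 5.76e-05). HIST2H4B was at 3.29, 2.55 and 0 CPM against 15.7, 5.78 and 15.8 CPM, the only member with a positive fold change (2.65 ± 0.87, adjusted p = 0.0628). It had no count in Sample 1c, where up to 3 counts could have been missed by sampling alone. More could be missing through the split of reads, as HIST2H4A held 2889.3 counts there. Without Sample 1c the value of HIST2H4B was 2.08 with adjusted p = 0.0478, and DESeq2 on all 8 libraries gave 2.66 with adjusted p = 0.00933. The sum of the pair was 591, 641 and 587 CPM in H1975 and 119, 102 and 132 CPM in H1975–OR given vehicle, a log2 ratio of -2.37.

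**Figure D2:**
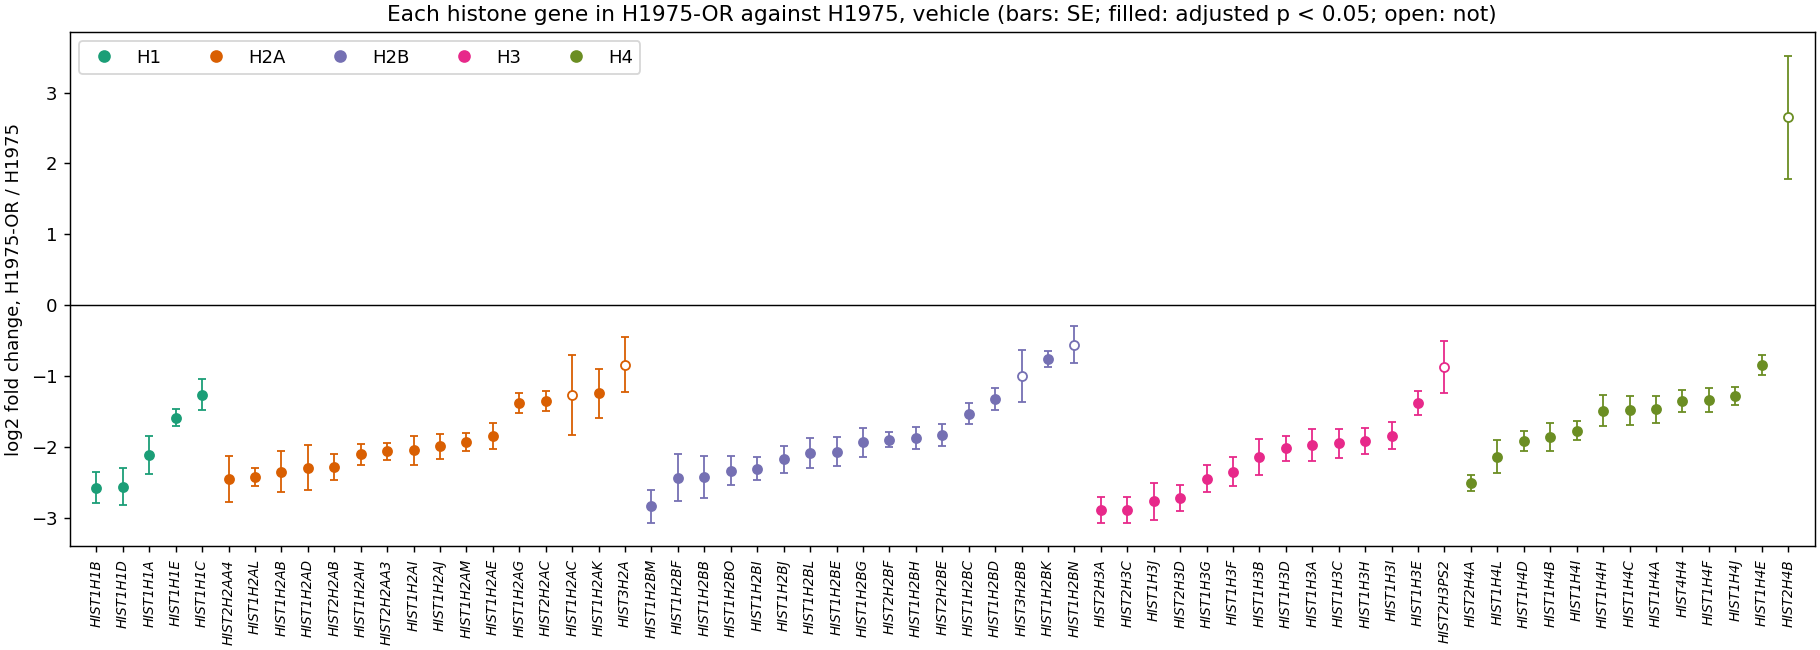
Log2 fold change of H1975–OR over H1975, both given vehicle (vertical axis), for each of the 65 histone genes, grouped by type on the horizontal axis. Points are estimates, bars SE, filled points have an adjusted p under 0.05; 59 filled points lie below 0, and the open point above 0 is HIST2H4B at 2.65.

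Near-identical copies were common enough to matter for single genes. In 13 members over 50% of the 31-base words of the canonical transcript occurred in another histone gene. For these 13 the median log2 fold change was -2.04 with 11 called lower, and the other 52 a median of -1.91 with 48 called lower. Of the words of HIST1H4J, 92.5% occurred in another histone gene, and the gene with which it shared the most was HIST1H4K, a row listed at effectively 0 in every library. HIST2H2AA3 and HIST2H2AA4 summed to 663, 777 and 755 CPM in H1975 and 181, 174 and 159 CPM in H1975–OR given vehicle, a log2 ratio of -2.10.

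The fall was seen at each large gene cluster. In HIST1 on chromosome 6 the median log2 fold change was -1.92 over the 30 members of the stretch from HIST1H1A to HIST1H4H, with 29 called, and -2.02 over the 20 members of the stretch from HIST1H2BJ to HIST1H2BO, with 19 called. In HIST2 on chromosome 1 it was -2.17 over 12 members, with 10 called. The 2 members of HIST3, also on chromosome 1, had a median of -0.92 and neither was called, while the single gene of HIST4 on chromosome 12, HIST4H4, was called at -1.35. The 9 members known to make polyadenylated mRNA as well were HIST1H1C, HIST1H2AC, HIST1H2BC, HIST1H2BD, HIST1H2BJ, HIST1H2BK, HIST2H2BE, HIST3H2A and HIST4H4. They had a median of -1.32 with 7 called lower, against -2.01 with 52 called lower for the other 56. HIST1H2BJ, at -2.17 ± 0.19, was the steepest of the 9. The list is not the same as the annotated poly(A) signals. AATAAA lay in the last 50 bases of some transcript of 16 members. These included HIST1H2BE, HIST1H3H and HIST1H4H, which are not listed, but not HIST1H1C, which is.

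Genes with related roles were read beside the histones. Among all 12513 genes tested, edgeR called 10.3% lower and 9.89% higher. Of 16 genes of DNA replication, 11 fell and 0 rose, with a median log2 fold change of -1.65. CDC45, part of the replicative helicase, fell by 3.05, RRM2, a subunit of ribonucleotide reductase, by 2.93, and MCM5, also of the helicase, by 2.15 on the log2 scale. Of 24 genes of histone transcription and mRNA 3′ end formation, 7 fell and 0 rose, with a median of -0.33. The 7 were E2F1 (-2.47, adjusted p = 0.00242), CCNE2 (-2.13), CDK2 (-1.97), CDC25A (-1.32), CPSF2 (-0.88), SRRT (-0.79) and CPSF3 (-0.49). CDK2 with cyclin E phosphorylates NPAT, the coactivator of histone genes, and NPAT itself was at 54.5, 53.5 and 51.8 CPM in H1975 and 64.2, 67.7 and 62.2 CPM in H1975–OR given vehicle (0.30, adjusted p = 0.117). DESeq2 called 9 of the 24 lower, CSTF2 and NCBP2 being added, but its share over all genes was not counted. SLBP was not called (-0.45, adjusted p = 0.0819). ZNF473, LSM10 and LSM11, which act with the U7 particle that cuts histone pre-mRNA, had log2 fold changes of 0.06, -0.14 and -0.26, with adjusted p from 0.432 to 0.848.

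The genes listed here as replication-independent histone genes were also lower in part. Whether their levels follow the cell cycle in these cells was not tested. Of the 11 listed genes 10 were tested, and 6 fell with a median of -0.86 over the 10. H2AFZ, which encodes the variant H2A.Z, went from 392, 439 and 360.0 CPM in H1975 to 246, 156 and 162 CPM in H1975–OR given vehicle (-1.06, adjusted p = 0.00513). H1F0, a linker histone of resting cells, fell by 1.93, H1FX by 1.06, H3F3B by 0.94 and H2AFV by 0.66. CENPA, the centromeric H3, fell by 4.33 from levels under 21 CPM. H3F3A, the other gene for H3.3, had a log2 fold change of 0.14 (adjusted p = 0.387), and H2AFX was not called by edgeR (-0.77, adjusted p = 0.0864). DESeq2 called 8 of these genes lower, H2AFX and H2AFJ being added. Of 19 histone chaperones and related enzymes, 5 fell (ASF1B, HJURP, CHAF1A, NASP and HAT1), 1 rose (NAP1L1, 0.53), and the median was -0.17. DESeq2 called ATRX higher as well, which made 2 higher and 5 lower. Over all 12513 genes tested edgeR called 10.3% lower and 9.89% higher, and the DESeq2 share was not counted. The part that a lower share of cells in S phase has in the histone result was not tested.

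**Figure D3:**
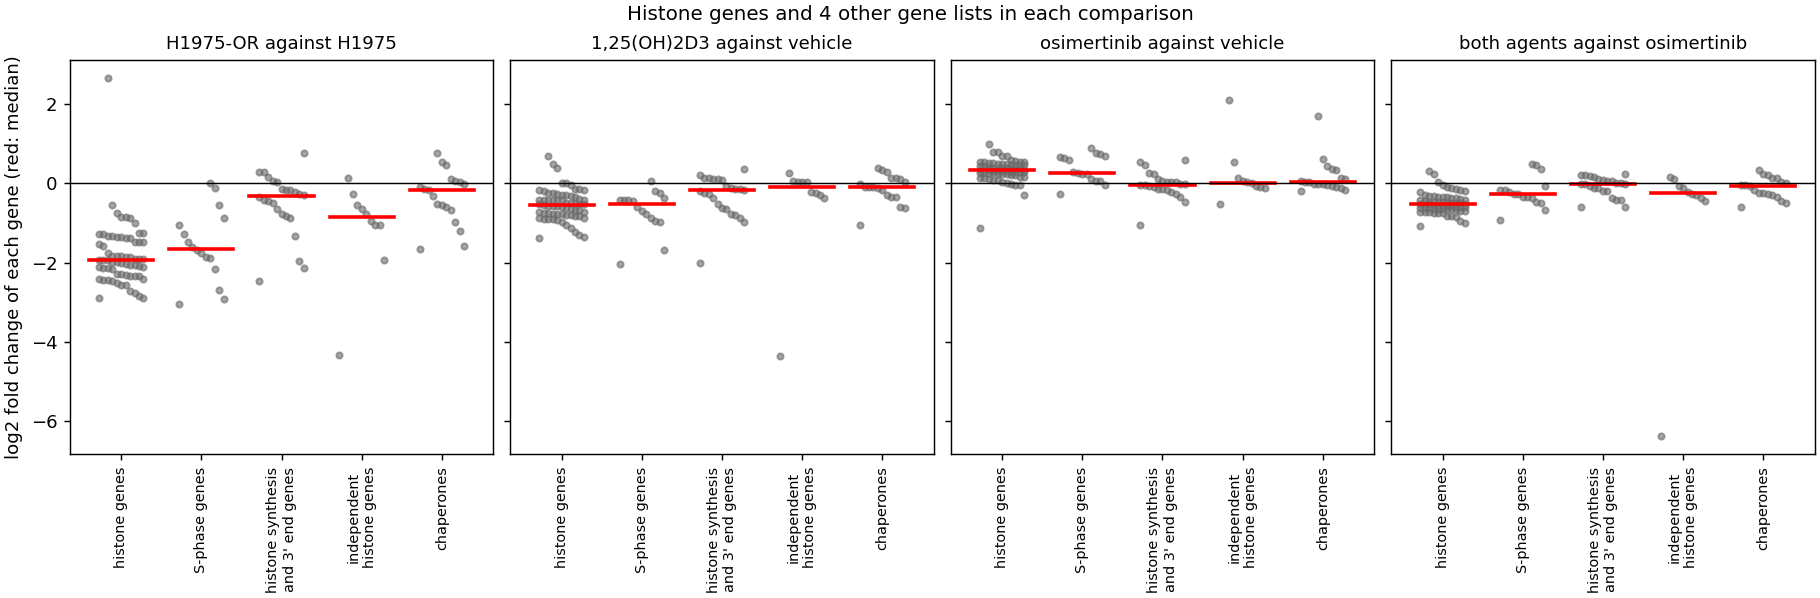
Log2 fold change of each gene (vertical axis) for the histone genes and 4 other lists (horizontal axis) in 4 comparisons (panels). Points are genes and red lines medians; the first panel shows medians of -1.93 for the histone genes, -1.65 for the DNA replication genes and -0.17 for the chaperones.

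The second comparison asked what 1,25(OH)2D3 does in H1975–OR. Levels were lower after the hormone for most members, yet no single member passed the test. The members summed to 2741.2 and 2331.7 CPM in Samples 3b and 3c, below the 3729.9, 3267.4 and 3159.1 CPM of vehicle, a log2 ratio of -0.42. Sample 3a, at 2695.4 CPM, lay below vehicle as well. Of the 65 members, 0 were called, against 0.152% of all 12513 genes tested, and the lowest adjusted p was 0.0747 for HIST1H2AL. At an unadjusted p under 0.05, 38 members were lower and 0 higher, against 3.63% of all genes tested that were lower. The log2 fold change was negative for 60 members, with a median of -0.55 against -0.01 over all genes. In 41 members Samples 3b and 3c lay below all vehicle libraries, against 12.3% of all genes tested. DESeq2 called 7 members lower, namely HIST1H1B, HIST1H2AJ, HIST1H2AL, HIST1H2BJ, HIST1H3C, HIST1H3G and HIST1H3J. The share of all genes that DESeq2 called was not counted, and the 0.152% is that of edgeR.

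By type, the sums after 1,25(OH)2D3 lay below those of vehicle without overlap in Samples 3b and 3c. H3 showed the widest gap, with 422, 337 and 254 CPM in Samples 3a, 3b and 3c against 589, 413 and 461 CPM in 2a, 2b and 2c, a log2 ratio of -0.72 without 3a. Sample 3a lay within the vehicle range for H3. H1 was at 499.5, 436 and 352 CPM (-0.46) and H2B at 621, 620.2 and 526 CPM (-0.46). Smaller ratios were found for H2A, at 652, 649 and 613 CPM (-0.29), and for H4, at 500.3, 699 and 586 CPM (-0.30). The H2A value rests in part on HIST1H2AC, which was low in Sample 2a. Without the 9 members on the list of polyadenylated mRNAs, HIST1H2AC among them, the ratio was -0.48 for H2A, -0.37 for H1, -0.58 for H2B and -0.32 for H4. For H1 the vehicle libraries themselves ranged from 439 to 692 CPM, so that Sample 3a fell inside them.

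HIST1H2AL, an H2A gene, was at 19.2, 10.5 and 10.0 CPM in Samples 3a, 3b and 3c and at 22.1, 19.8 and 18.9 CPM in vehicle, with 3b and 3c well below and 3a inside the vehicle range (-0.98 ± 0.16). HIST1H2BJ was at 17.9, 13.1 and 13.0 CPM against 39.6, 27.9 and 24.8 CPM (-1.24 ± 0.23, adjusted p = 0.125). All 3 treated libraries of HIST1H2BJ lay below all 3 of vehicle. It was called when the replicate letter was a block and Sample 3a was kept (-1.06, adjusted p = 0.034 by edgeR). That fit was chosen after seeing the data. With the block and without Sample 3a, HIST1H2BJ was not called. HIST1H1B was at 56.9, 32.2 and 24.3 CPM against 96.4, 54.5 and 57.2 CPM (-1.30 ± 0.26, adjusted p = 0.164). HIST1H1E did not follow it, at 169.6, 166 and 137 CPM against 157, 157 and 142 CPM, with a log2 fold change of 0.00 ± 0.13 and overlapping groups. HIST1H1B held 7.15% ± 0.339 of the H1 CPM after 1,25(OH)2D3 and 12.7% ± 1.43 after vehicle, and HIST1H1E 38.6% ± 0.564 and 29.0% ± 5.48 (SD, n = 2 and n = 3, without Sample 3a). In Sample 3a the share of HIST1H1B was 11.4%, inside the vehicle range of 11.1 to 13.9%, so that the difference in its share was seen in Samples 3b and 3c alone. The share of HIST1H1E in Sample 3a was 34.0%, above the 22.6 to 32.2% of vehicle.

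For the other members of highest level in each type, the log2 fold change was -0.57 for HIST1H1C and -0.77 for HIST1H1D among H1. In H2A it was -0.30 for HIST2H2AA3, -0.52 for HIST1H2AG, -0.28 for HIST2H2AC and 0.50 for HIST1H2AC, the last resting on the low value of Sample 2a. In H2B it was -0.53 for HIST2H2BE, -0.61 for HIST1H2BH, -0.25 for HIST1H2BD and -0.17 for HIST1H2BK. In H3 it was -0.92 for HIST1H3B, -0.77 for HIST1H3F and -0.74 for HIST2H3A and HIST2H3C. In H4 it was -0.14 for HIST1H4J, -0.32 for HIST2H4A, -0.43 for HIST1H4E and -0.42 for HIST1H4C. None of these passed the test. The lowest p among members with a positive value was that of HIST3H2A, at 8.26, 9.65 and 8.54 CPM against 4.09, 8.67 and 4.04 CPM (0.70 ± 0.43, adjusted p = 0.798). The 9 members with known polyadenylated mRNA had a median of -0.25 and the other 56 one of -0.59.

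The same letter marks libraries whose deviations from their group means went together in this comparison, with correlations of 0.16 to 0.31 across genes. Sample 3a was kept for these correlations, also in the mean of its group, and the highest value is that of letter a. Taken letter by letter, 1,25(OH)2D3 was below vehicle in 59 of 65 members for a, 54 for b and 62 for c. Letter a uses Sample 3a. The same count was not made over all genes. For the DNA replication genes the median change in the same contrast, on the log2 scale, was -0.52, with 8 of 16 lower at an unadjusted p under 0.05 and 0 called by edgeR or DESeq2. The list of histone transcription and 3′ end genes had a median of -0.18 and 0 called, with 5 lower and 1 higher at an unadjusted p under 0.05. CCNE2, the only one DESeq2 called, had its lowest adjusted p, 0.106, and was at 12.1, 6.82 and 12.9 CPM after vehicle and 5.24, 3.00 and 2.23 CPM in Samples 3a, 3b and 3c. The replication-independent histone genes had a median of -0.10 and the chaperones one of -0.09. Both had 0 called by edgeR or DESeq2, and at an unadjusted p under 0.05 there were 0 of the former and 2 of the latter, lower.

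The third comparison set H1975–OR given osimertinib against H1975–OR given vehicle. As the line was kept in osimertinib, this compares continued drug with its withdrawal for 96 h. Histone levels were somewhat higher with osimertinib, and again no member passed the test. The members summed to 4462.1, 4220.7 and 3679 CPM in Samples 4a, 4b and 4c, a log2 ratio of 0.28 to vehicle, and Sample 4c lay below Sample 2a. Of the 65 members, 0 were called, against 0.048% of all 12503 genes tested. At an unadjusted p under 0.05, 10 were higher and 0 lower, against 3.62% of all genes tested that were higher. The log2 fold change was positive for 60 members, with a median of 0.33 against 0.01 over all genes. In 19 members all osimertinib libraries lay above all vehicle libraries, against 5.96% of all genes tested. Vehicle libraries enter this comparison and the previous one alike, so the opposite signs are not independent of each other. DESeq2 also called 0 members.

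H3 and H4 were the types whose summed levels did not overlap between osimertinib and vehicle. H3 was at 767, 663 and 595 CPM in Samples 4a, 4b and 4c (log2 ratio 0.47) and H4 at 941, 993 and 912 CPM (0.26). H1, H2A and H2B were at 687, 633 and 541, 1022, 991 and 778 and 1045, 940.0 and 852 CPM, with log2 ratios of 0.20, 0.27 and 0.26, and overlapped with vehicle. HIST2H3A and HIST2H3C had the lowest adjusted p, 0.386, at 63.8, 60.1 and 51.9 CPM against 37.2, 26.0 and 39.3 CPM (0.78 ± 0.22). Of the highest gene in each type, HIST1H3B was at 99.2, 83.8 and 75.6 CPM (0.68 ± 0.28), HIST1H4J at 226, 240.1 and 224 CPM (0.22 ± 0.12) and HIST1H1C at 278, 234 and 221 CPM (-0.01 ± 0.22). The lowest p among members with a negative value was that of HIST2H3PS2, at 3.80, 2.86 and 1.02 CPM against 4.09, 6.82 and 5.97 CPM (-1.12 ± 0.51, adjusted p = 0.67). HIST2H2AA3 was at 179, 181 and 164 CPM (0.09 ± 0.12) and HIST1H2BD at 142, 107 and 93.9 CPM (0.23 ± 0.21). The DNA replication genes had a median of 0.27 with 0 called by edgeR and 2 of 16 higher at an unadjusted p under 0.05.

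The fourth comparison asked what 1,25(OH)2D3 does when osimertinib is present, and shares no library with the 1,25(OH)2D3 comparison in its absence. It does share Samples 4a to 4c with the comparison of osimertinib and vehicle, so the opposite signs of those comparisons are not independent either. Histone levels were again lower with the hormone. The members summed to 3438.3, 2764.7 and 2818.2 CPM in Samples 5a, 5b and 5c, below the 4462.1, 4220.7 and 3679 CPM of osimertinib alone, a log2 ratio of -0.46. Of the 65 members, 0 were called, against 0.096% of all 12503 genes tested, and 31 were lower and 0 higher at an unadjusted p under 0.05, against 2.09% of all genes tested that were lower. The log2 fold change was negative for 62 members, with a median of -0.52 against 0.00 over all genes. In 27 members the groups did not overlap and the combination was lower, against 4.11% of all genes tested. With the replicate letter as a block, 1 member was called, HIST2H2BE (-0.68, adjusted p = 0.0448 by edgeR). In this comparison the deviations of libraries of the same letter had correlations of 0.19 to 0.39. DESeq2 called 2 members, HIST1H2AL and HIST2H2BE. Shares of all genes called were not counted for DESeq2 or for the block.

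HIST1H2AL had the lowest adjusted p, 0.328, at 16.2, 11.7 and 14.8 CPM in Samples 5a, 5b and 5c against 33.4, 28.6 and 23.5 CPM with osimertinib alone (-1.01 ± 0.21), without overlap. HIST2H2BE was at 58.1, 66.4 and 67.4 CPM against 90.1, 109 and 107 CPM (-0.68 ± 0.16), also without overlap. HIST2H2AA3 was at 144, 114 and 115 CPM against 179, 181 and 164 CPM (-0.50 ± 0.12, adjusted p = 0.462). In H1 the values were -0.32 for HIST1H1C, -0.29 for HIST1H1E, -0.46 for HIST1H1B and -0.51 for HIST1H1D. The other H2A and H2B genes of high level had values of -0.48 (HIST1H2AG), -0.34 (HIST2H2AC), -0.03 (HIST1H2AC), -0.52 (HIST1H2BD), -0.56 (HIST1H2BH) and -0.42 (HIST1H2BK). In H3 they were -0.58 for HIST1H3B, -0.36 for HIST1H3F and -0.64 for HIST2H3A and HIST2H3C. In H4 they were -0.40 for HIST1H4J, -0.83 for HIST2H4A, -0.34 for HIST1H4E and -0.12 for HIST1H4C. HIST2H4B had the lowest p among the positive values (0.30 ± 0.52), with the doubt about its reads given above.

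By type, H3 was at 564, 374 and 401 CPM with both agents (log2 ratio -0.60 to osimertinib alone), H2B at 839, 582 and 593 CPM (-0.49), H2A at 745, 657 and 659 CPM (-0.44) and H4 at 744, 687 and 709 CPM (-0.41), none overlapping with osimertinib alone. H1 was at 547, 465 and 456 CPM (-0.34), where Sample 5a lay above Sample 4c. Between libraries of the same letter H1 was lower in each pair, with log2 ratios of -0.33, -0.45 and -0.25 for a, b and c. Letter by letter, the combination was below osimertinib alone in 60 of 65 members for a, 62 for b and 56 for c, again without a count over all genes. The DNA replication genes had a median of -0.28 with 1 of 16 lower at an unadjusted p under 0.05 and 0 called by edgeR or DESeq2. The histone transcription and 3′ end genes, the replication-independent histone genes and the chaperones had medians of -0.03, -0.25 and -0.07, with 0 called in each by edgeR or DESeq2 and 1, 2 and 1 lower at an unadjusted p under 0.05.

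The 2 effects of 1,25(OH)2D3 could be set against each other. Of the 65 members, 59 had a negative value in both settings, and 21 were lower at an unadjusted p under 0.05 in both. These joint counts were not made over all genes. In each setting alone, 6403 of 12513 genes tested were negative without osimertinib and 6178 of 12503 with it. The difference between the effects, tested as an interaction, was called for 0 members (0% of all genes tested were called), and 0 members had an unadjusted p under 0.05, against 2.64% of all 12503 genes tested. The differences ranged from -0.67 to 1.19 on the log2 scale with a median of 0.01. HIST2H4B held the upper and HIST3H2A the lower end, and HIST1H1B, at 0.84 ± 0.40, had the lowest p. DESeq2 also called 0 members. The SE of the difference had a median of 0.35 on the log2 scale, so a difference between the settings as large as the effects themselves would not have been detectable for most single genes.

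**Figure D4:**
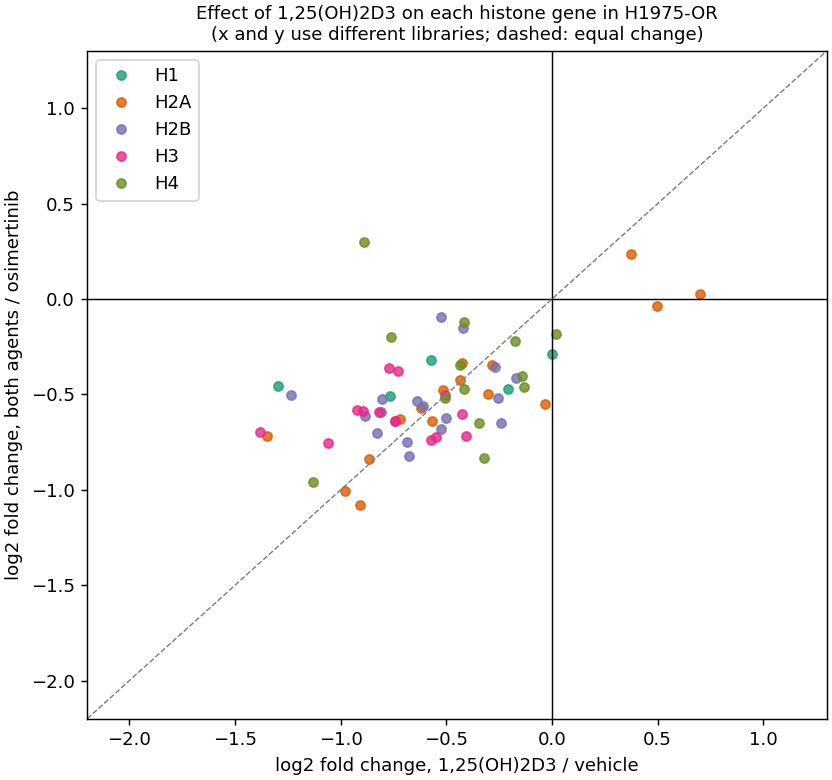
Log2 fold change of 1,25(OH)2D3 over vehicle (horizontal axis) and of both agents over osimertinib alone (vertical axis) for each histone gene in H1975–OR, coloured by type, with the dashed line at equal change. The axes use different libraries, and 59 of the 65 points lie below 0 on both, a count that was not made over all genes.

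The last comparison set both agents against vehicle. Here the members summed to 3438.3, 2764.7 and 2818.2 CPM against 3729.9, 3267.4 and 3159.1 CPM, a log2 ratio of -0.17 with overlapping groups. Of the 65 members, 0 were called, against 0.496% of all 12503 genes tested. At an unadjusted p under 0.05, 5 were lower and 0 higher, against 6.09% of all genes tested that were lower. In 7 members the combination lay below vehicle without overlap, against 8.22% of all genes tested, and the median log2 fold change was -0.23. H2A, at 745, 657 and 659 against 770.1, 789 and 761 CPM, and H4, at 744, 687 and 709 against 801, 803 and 777 CPM, did not overlap, whereas H1, H2B and H3 did. DESeq2 also called 0 members. HIST2H3PS2 had the lowest adjusted p, 0.207, at 1.40, 1.88 and 1.41 CPM against 4.09, 6.82 and 5.97 CPM (-1.84 ± 0.54), and HIST2H2AA3 was at 144, 114 and 115 CPM against 177, 166 and 151 CPM (-0.41 ± 0.12). HIST1H1C was at 227, 198 and 168 CPM (-0.32 ± 0.23), HIST1H3B at 77.5, 53.3 and 42.6 CPM (0.09 ± 0.28) and HIST1H4J at 160.2, 178 and 187 CPM (-0.18 ± 0.12). HIST1H2BD was at 103, 72.8 and 66.0 CPM (-0.29 ± 0.21), and HIST1H2AK, with the lowest p among the positive values, at 7.61, 18.5 and 15.3 CPM against 7.15, 4.13 and 10.2 CPM (0.93 ± 0.45). The DNA replication genes had a median of 0.01.

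Over all 15 libraries the gap between the lines was much wider than any treatment difference within H1975–OR. The lowest H1975 library, 1c, held 11181 CPM of histone mRNA and the highest H1975–OR library, 4a, held 4462.1 CPM. Within H1975–OR the libraries of a group also differed. Letter a had the highest summed level in the groups given vehicle, osimertinib and both agents. With Sample 3a counted, letter a had the highest H3 and H2B sum in all 4 H1975–OR groups, whereas H4 was highest in b in 3 of them. Some of these ranks rest on near ties. H2B was at 621.32 CPM in Sample 3a and 620.2 CPM in 3b, and H4 at 802.8 CPM in Sample 2b and 801.16 CPM in 2a. What lies behind this was not tested.

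**Figure D5:**
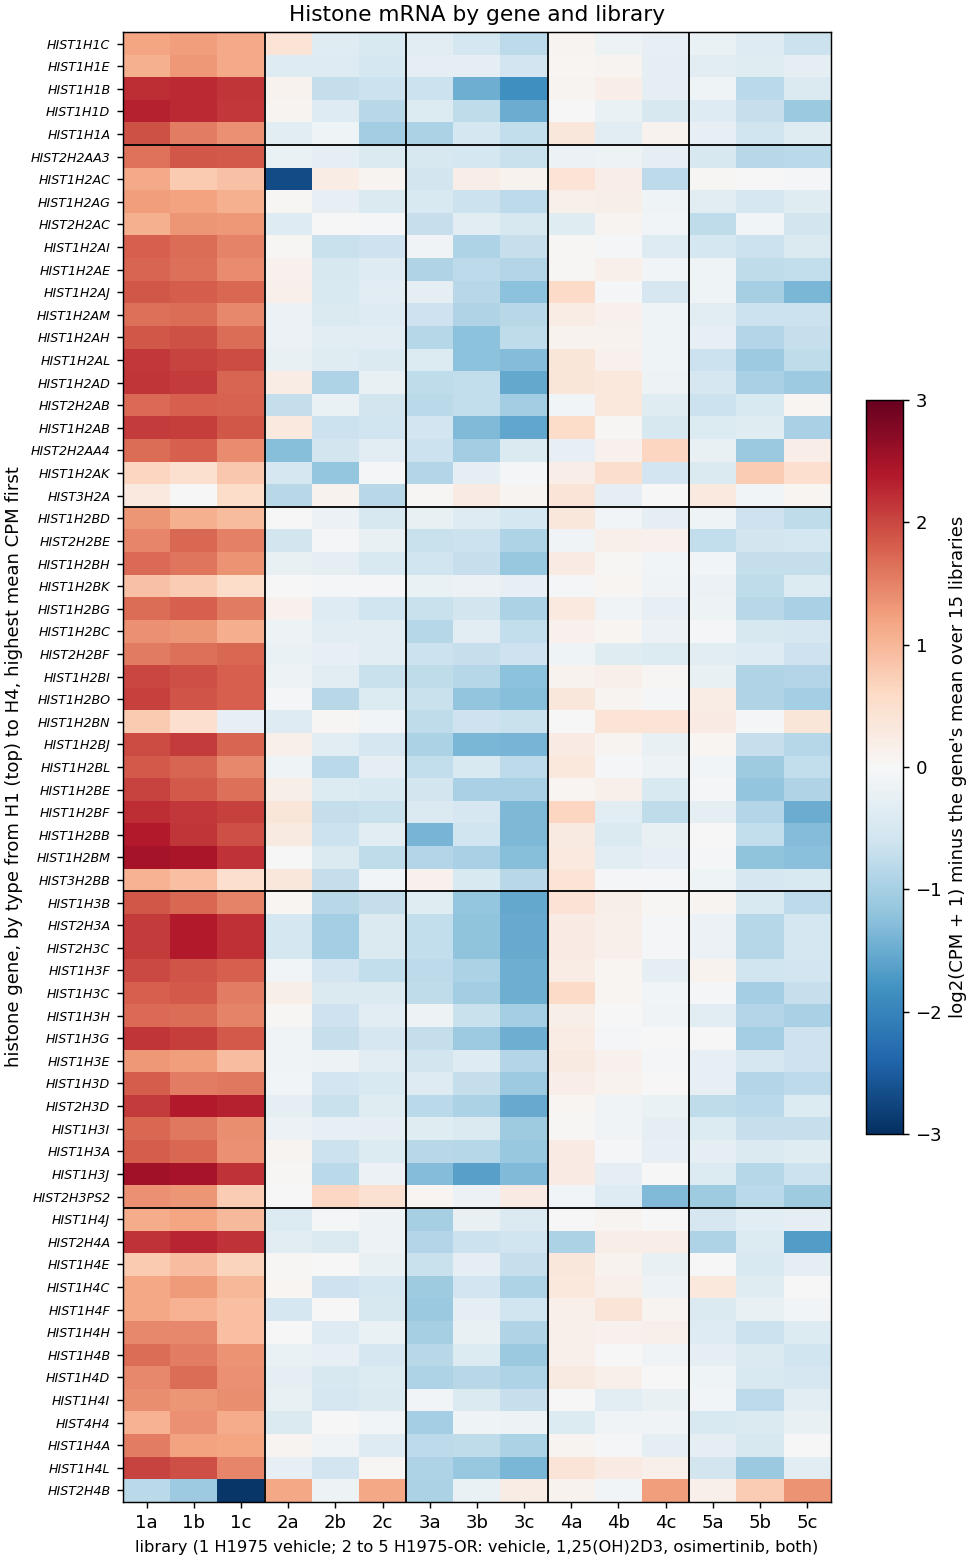
Level of each histone gene (rows, by type from H1 at the top to H4) in each of the 15 libraries (columns), as log2(CPM + 1) minus the gene's mean over the libraries. Red is above and blue below the mean; the 3 H1975 columns are red for nearly all genes, and the dark cell of HIST1H2AC marks the 95.3 counts of Sample 2a.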

How the data were processed

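RNA from 5 groups of H1975 and H1975–OR cells was sequenced as paired-end, strand-specific, ribosome-depleted total RNA. The table deposited by the authors holds an estimated count per gene and library, made with kallisto 0.43.0 on GRCh38 and summed to genes with tximport; the submitters' processing notes also name STAR 2.5.2b and CASAVA 1.8.2. These estimated counts were rounded and tested with edgeR 4.0.16 in R 4.3.3 (TMM scaling, quasi-likelihood test, Benjamini-Hochberg adjustment over all genes tested, threshold 0.05). Genes were kept by filterByExpr with a minimum count of 10 and a minimum total of 15. H1975 vehicle, H1975–OR vehicle and H1975–OR with 1,25(OH)2D3 shared 1 fit (8 libraries, 12513 genes), and the 4 H1975–OR groups another (11 libraries, 12503 genes). Sample 3a was left out, as by the study. Sums of CPM carry no test. kallisto divides reads between near-identical copies by a model, so values of such copies are uncertain. Named genes are the 4 members of highest mean CPM per type, the called members (the 10 with the largest change where there were more than 10), and the members of lowest p in each direction where none was called, with fewer values given for the comparisons of osimertinib and of both agents with vehicle; other members were named after their values were seen. The members and gene lists were chosen with earlier results of these data known. The list of 8 RNAs without a poly(A) tail had no row in the table and was not analysed here. Pairing by replicate letter was checked by the correlation, across genes, of deviations from group means. Sample 3a was kept in this check and in the mean of its group. Over the 3 letters it was 0.16 to 0.31 for 1,25(OH)2D3 against vehicle and 0.19 to 0.39 for both agents against osimertinib. It was 0.09 to 0.25 for osimertinib against vehicle and 0.09 to 0.29 for both agents against vehicle. For H1975–OR against H1975 it was -0.01 to 0.03. No cutoff was set. Alternatives were RLE scaling, TMM without the members, DESeq2 1.42.0, other filters, other sets of libraries and a replicate block. The DESeq2 result of the DNA replication genes for osimertinib against vehicle is not reported here. The scripts were tested on simulated data.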

Additional observations from a re-analysis of the deposited data

How the results depend on the processing

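The number of members called in H1975–OR against H1975 was 58 to 60 under every alternative listed in the processing summary, and 58 to 60 when each library was left out in turn. All but 1 of these calls, at most, were lower. In the other comparisons the count of 0 rose to 7 for 1,25(OH)2D3 against vehicle and to 2 for both agents against osimertinib with DESeq2, and stayed at 0 when each library was left out. Leaving out Sample 3b or 3c left 1 library with 1,25(OH)2D3, which is then assumed to vary like the other groups. With the replicate block, 1 member was called for both agents against osimertinib, and 1 (HIST2H2AA3) for both agents against vehicle. In the latter comparison the correlations by letter were 0.09 to 0.29. Blocks in the 11 and the 12 H1975–OR libraries were added after seeing the data: 0 members were called for 1,25(OH)2D3 against vehicle with the block and without Sample 3a, and 1 (HIST1H2BJ) with the block and with it. The block changed no other count. Shares of all genes called were not counted under the alternatives. The cause of these changes was not tested.

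The summed CPM over all members kept its direction under every alternative run. Without each library in turn its log2 ratio ran from -1.91 to -1.78 for H1975–OR against H1975, from -0.54 to -0.31 for 1,25(OH)2D3 against vehicle, from 0.22 to 0.36 for osimertinib against vehicle, from -0.56 to -0.39 for both agents against osimertinib and from -0.28 to -0.10 for both agents against vehicle. Leaving out the polyadenylated members moved H2A to -1.92 and H2B to -1.997 in H1975–OR against H1975, and H2A to -0.48 with 1,25(OH)2D3 and to -0.28 with both agents, each against vehicle. Fewer genes then enter the sum.

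Among named members, the sign of 7 values changed under some alternative, 0 of them called. HIST1H1C for both agents against vehicle (-0.32) and HIST2H4B for both agents against osimertinib (0.30) were among them. For 1,25(OH)2D3 against vehicle, HIST1H1E was -0.002 with RLE, with DESeq2 and with the compared groups alone, -0.003 with TMM without the members, -0.004 with at least 10 counts in every library, -0.001 with all 14 libraries and -0.017 with the replicate block, and ran from -0.143 to 0.135 without each library in turn. HIST1H1C for osimertinib against vehicle was 0.034 with the block and ran from -0.157 to 0.319 without each library, and for both agents against vehicle from -0.474 to 0.003. Without each library HIST1H3B ran from -0.175 to 0.434 for both agents against vehicle. For both agents against osimertinib HIST1H2AC ran from -0.319 to 0.208, HIST1H4C from -0.31 to 0.037 and HIST2H4B from -0.078 to 0.897. Small treatment effects on single genes are limited by the 2 or 3 libraries per group.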
